A study of Rattus norvegicus with 484 samples.

Results

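The genes described here are 104 of the 10210 named rat genes on the array. They were chosen by name: every gene whose symbol began with the cyclin stems Ccna, Ccnb, Ccnd or Ccne, with Cdk, Cdkn, Mcm, Cdc2, Cdc4, Cdc6, Cdc7, Aurk, Bub1, Plk or Kif, and in addition Top2a, Mki67, Pcna and Birc5. The name rule also brought in genes that do other work, among them cyclin-dependent kinases of transcription and of neurons, the small GTPase Cdc42 with its partners, and kinesins that carry cargo along microtubules. Those genes were kept and are counted in groups of their own. The members were read by 176 probes, and the 45 members with several probes were averaged.

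Entry into mitosis is driven by the kinase Cdk1 with its cyclins B (Ccnb1, Ccnb2) and A (Ccna2), switched on by Cdc25 phosphatases and followed by the Aurora and Polo-like kinases. Earlier, D and E cyclins with Cdk4 and Cdk2 carry a cell out of G1, the Mcm proteins load onto replication origins, and the proteins named Cdkn hold most of these kinases back. Hepatocytes of an adult liver seldom divide, and agonists of the nuclear receptor PPARA are known to enlarge the rodent liver and to start DNA synthesis in it, whereas muscle fibres have left the cell cycle for good.

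Rats were given 1 of 5 compounds or vehicle and sampled on days 2 to 6, and RNA of single animals was hybridised with Cy5 against a Cy3 pool of vehicle animals from the same tissue and day. The agonists of PPARA were fenofibrate at 400 mkd (the dose unit of the labels), bezafibrate at 250 mkd and Wy-14643 at 100 mkd. Rosiglitazone, a PPARG agonist, was given at 100 mkd and retinoic acid, a ligand of retinoid receptors, at 25 mkd. The liver held 14, 15, 15, 15 and 15 treated rats in that order and 73 vehicle rats, soleus 19, 20, 18, 20 and 20 with 35 vehicle rats, and quad 18, 20, 16, 16 and 18 with 63 vehicle rats. A further muscle, EDL, was measured without arrays of single vehicle rats, under fenofibrate at 50 mkd, bezafibrate at 25, Wy-14643 at 10, rosiglitazone at 10 and 100, and retinoic acid at 2.5 mkd, with 9, 9, 12, 9, 4 and 11 rats. Its arrays came from days 4 to 6, with day 3 in addition under Wy-14643 and retinoic acid. Rosiglitazone at 100 mkd was measured in EDL on day 4 alone. Strain, sex, age and route were not given in the sources used here. Most liver groups had 3 treated rats a day, and the vehicle groups of the liver had 14 to 16.

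All values below are log2 ratios of a rat to its vehicle pool, or differences of such ratios between treated and vehicle rats of the same day, averaged over the days. A member "rose" or "fell" where the adjusted p of limma's moderated test was under 0.05, with adjustment over all features on the array. The compounds share the vehicle arrays, so their results are not independent of each other. Ratios within a tissue give no absolute level, so neither the labelled tissue nor the order of levels between genes could be read from them.

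Some arrays stood apart. Of the 484 arrays, 9 had either a spread more than 3 times that of their tissue or a strong signal of another tissue's marker genes: 1 in liver (rosiglitazone rat 1376 on day 4), 5 in quad and 3 in soleus. Over all probes, 16 of 2226 pairs of quad arrays of the same day and 47 of 1700 soleus pairs correlated below -0.3, with a lowest r of -0.506, whereas the lowest r in liver was -0.273. The labels give the same dye to all single rats, so the direction of the ratios was kept.

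The liver library labelled vehicle rat 1054 (day 5) went against its label. The median of 9 known PPARA target genes was 1.17 in it, between -1.67 and 0.69 in the other 72 vehicle livers, and between 0.83 and 2.43 in the 44 livers of rats given a PPARA agonist. Vnn1, a pantetheinase strongly induced by PPARA, stood at 2.33 in that library against at most 0.87 in the other vehicle livers. Of the 9 targets, 3 did not exceed the highest of the other vehicle livers, namely Acot1 at 1.67 (others up to 1.69), Pdk4 at 0.87 (up to 1.43) and Cpt1a at -0.60 (up to 0.52). Over all probes the library correlated at 0.83 with fenofibrate rat 1154 of the same day, and at -0.21 to 0.13 with the other 13 vehicle livers of day 5. That library had been picked as the vehicle liver with the highest median over 14 mitotic members, so its high mitotic values follow from the choice. Ccnb2 stood at 2.18, Cdk1 at 1.65, Cdc20 at 1.54 and Aurkb at 1.86. The median over 14 mitotic members was 0.76, against 0.37 in the next vehicle liver. The library stayed in the vehicle group because labels define the groups, and the counts and the main mitotic values are also given without it. Leaving out the vehicle liver picked as highest tends to raise the mitotic differences and lower their vehicle SDs by construction.

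In the mean of the PPARA agonists, 7 of 9 genes of mitotic entry, 4 of 5 of the spindle checkpoint and chromosome structure, 3 of 7 mitotic kinesins, cyclin D1 and 2 Polo-like kinases rose in liver, while 1 of 9 genes that license and run replication did. In the mean of the 3 agonists, 33 members rose and 13 fell. The background was 21.6% of all features higher and 23.9% lower, so the rises were more frequent than the background and the falls less frequent. The same background applies to the counts of each role group below. Without the library labelled vehicle rat 1054, 47 members passed in place of 46. The median difference was 0.03 over the members and -0.00 over all features. Whether a higher value came from more dividing cells or from more RNA per cell cannot be told apart in whole tissue.

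Among the 9 kinases, cyclins and phosphatases of mitotic entry, 7 rose and 1 fell, with a median of 0.35. Cyclin B2 (Ccnb2), a partner of Cdk1, had the highest rise of all members. Its ratios ran from -0.55 to 2.16 with a median of 0.56 in the 44 agonist livers, and from -0.76 to 0.65 in the 72 vehicle livers other than the library labelled vehicle rat 1054. The groups overlapped, but 39 of 44 agonist livers lay above the vehicle median of their day and 17 above each of those 72. The difference was 0.69 ± 0.08 (SE), or 1.61-fold, with an adjusted p of 7.1e-13, and 0.72 without the library labelled vehicle rat 1054.

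Cdk1, the kinase that starts mitosis, ran from -0.40 to 1.95 with a median of 0.40 in the agonist livers, and 38 of 44 lay above the vehicle median of their day. The difference was 0.59 ± 0.08 (adjusted p = 5.2e-11), or 0.62 without the library labelled vehicle rat 1054, and 8 agonist livers exceeded the highest of the 72 vehicle livers at 0.95. Cdc25a, the phosphatase that frees Cdk2 and Cdk1 from inhibition, gave the clearest separation of all members. It ran from -0.14 to 1.57 with a median of 0.63 in agonist livers and from -0.49 to 0.56 with a median of -0.04 in all 73 vehicle livers. All but 1 of 44 agonist livers lay above their day's vehicle median, and 26 lay above every vehicle liver, 8 under fenofibrate, 8 under bezafibrate and 10 under Wy-14643. The difference was 0.63 ± 0.05 with an adjusted p of 2.0e-20. In the library labelled vehicle rat 1054 Cdc25a stood at -0.01, unlike the mitotic cyclins Ccnb2 (2.18), Ccnb1 (1.49) and Ccna2 (0.84).

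The chromosomal kinase Aurkb rose by 0.53 ± 0.09 (0.56 without that library), cyclin B1 (Ccnb1) by 0.35 ± 0.05, cyclin A2 (Ccna2) by 0.24 ± 0.04 and the kinase Plk1 by 0.10 ± 0.03. The exceptions were Aurka, the centrosomal Aurora kinase, at -0.00 ± 0.04, and the phosphatase Cdc25b, which fell by 0.11 ± 0.05. The call for Cdc25b was lost when array medians were subtracted, when arrays were scaled to one spread, with array quality weights and when day 2, 4 or 6 was left out. For Ccna2 the probes disagreed in size, with 0.47 on one and 0.02 on the other. The 3 probes of Ccnb1 lay between 0.26 and 0.52.

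**Figure D1:**
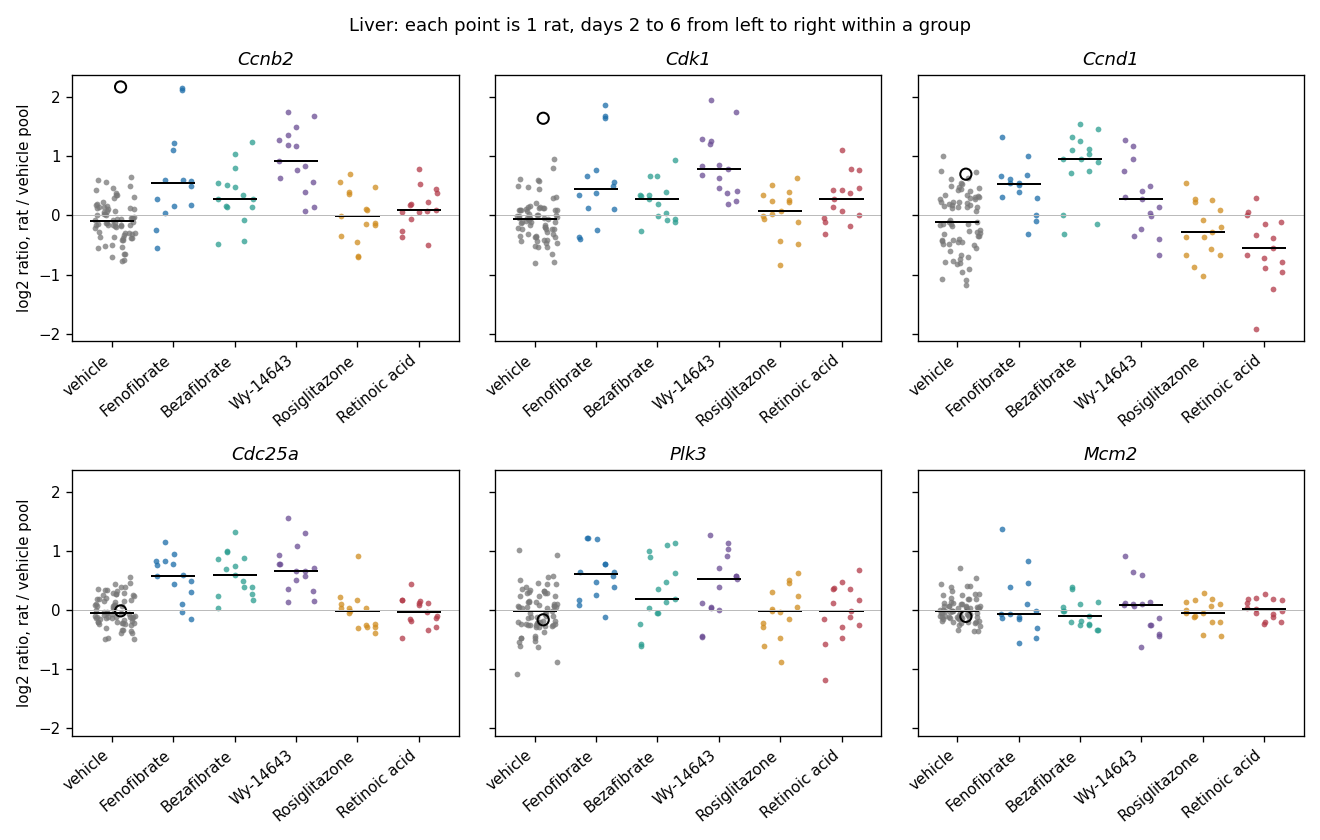
Log2 ratio of each liver to its vehicle pool (vertical axis) for 6 members, by compound (horizontal axis, days 2 to 6 from left to right within a compound); points are single rats, the black line is the median, and the open ring is the library labelled vehicle rat 1054. All Wy-14643 livers lie above the vehicle median of their day for Ccnb2 and Cdk1, 43 of 44 agonist livers do so for Cdc25a, and Mcm2 shows 21 of 44.

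Promoters of G2 and M phase genes are known for CCAAT boxes, bound by NF-Y, and for the cell cycle homology region (CHR), bound by the DREAM and MuvB complexes. The sequences upstream of 4 members that rose together are shown for that reason, from RefSeq on build GRCr8, 5′ to 3′ on the strand of the gene, and only where they lie outside the annotated gene. Capitals mark matches, on either strand, to the CCAAT box (CCAAT), to the CHR (TTTGAA or TTCGAA) and to the E2F core (TTTCGCGC, TTTGGCGC, TTTCCCGC or TTTGCCGC). The windows are chr20:19265043-19265251 on the plus strand for Cdk1, and on the minus strand chr8:79981718-79981908 for Ccnb2, chr5:137255800-137256049 for Cdc20 and chr2:33655226-33655475 for Ccnb1.
Cdk1: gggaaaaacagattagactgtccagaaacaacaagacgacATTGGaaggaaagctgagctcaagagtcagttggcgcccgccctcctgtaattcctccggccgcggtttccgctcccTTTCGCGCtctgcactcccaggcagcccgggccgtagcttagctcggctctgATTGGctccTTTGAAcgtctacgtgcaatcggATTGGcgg
Ccnb2: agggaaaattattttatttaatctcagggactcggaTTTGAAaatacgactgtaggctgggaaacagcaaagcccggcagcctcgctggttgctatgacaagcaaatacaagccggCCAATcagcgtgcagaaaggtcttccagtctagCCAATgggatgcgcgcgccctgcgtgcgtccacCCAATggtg
Cdc20: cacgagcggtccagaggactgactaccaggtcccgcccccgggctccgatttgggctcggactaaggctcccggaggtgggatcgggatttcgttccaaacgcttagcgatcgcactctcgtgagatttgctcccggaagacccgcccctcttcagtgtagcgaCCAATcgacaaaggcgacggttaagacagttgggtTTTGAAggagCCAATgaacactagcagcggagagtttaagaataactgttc
Ccnb1: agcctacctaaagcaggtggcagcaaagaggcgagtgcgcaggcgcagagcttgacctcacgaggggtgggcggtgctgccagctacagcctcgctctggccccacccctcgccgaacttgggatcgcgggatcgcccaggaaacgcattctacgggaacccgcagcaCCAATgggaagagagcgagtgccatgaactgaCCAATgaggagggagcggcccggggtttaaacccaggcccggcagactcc

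Cdk1 and Ccnb2 each show 3 CCAAT boxes, and Cdc20 and Ccnb1 each show 2. A CHR match stands in the printed stretch of Cdk1, Ccnb2 and Cdc20 but not of Ccnb1, and an E2F core in that of Cdk1 alone. In Ccnb2 the printed CHR match lies 214 bases before the listed start, upstream of its 3 CCAAT boxes. Further CHR matches, at 43 bases in Ccnb2 and at 16 in Cdk1, lie inside the annotated gene and were not printed. Of the 104 members, 85 had a promoter in the table. Within 250 bases before the listed start, a CCAAT box was found in 41 of the 85 (48.2%) and in 36.1% of all 27457 genes, and a CHR in 16 (18.8%) and in 18.5%. An E2F core was found in 7 members (8.2%) and in 1.9% of all genes. Of the 12 members of mitotic entry, spindle checkpoint and chromosome structure with a promoter, 10 held a CCAAT box, 8 a CHR and 2 an E2F core. These are matches of letters and were not tested as binding sites. The motifs did not overlap each other in the 4 windows printed.

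Of the 5 genes of the spindle checkpoint and of chromosome structure, 4 rose and none fell, with a median of 0.24. Cdc20, which activates the anaphase-promoting complex, ran from -0.56 to 1.66 with a median of 0.49 in agonist livers. It lay above the vehicle median of the day in 40 of 44, and 16 exceeded the highest of the 72 other vehicle livers at 0.60. The difference was 0.55 ± 0.06 (adjusted p = 3.5e-14), and 0.57 without the library labelled vehicle rat 1054. Survivin (Birc5), a subunit of the chromosomal passenger complex, rose by 0.31 ± 0.06, the proliferation antigen Mki67 by 0.24 ± 0.05 and topoisomerase IIα (Top2a), which untangles chromosomes, by 0.19 ± 0.03. The checkpoint kinase Bub1b stood at 0.04 ± 0.02 and did not pass.

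Of 7 mitotic kinesins, 3 rose: Kif18b, which trims astral microtubules, by 0.22 ± 0.04, the chromosome arm motor Kif22 by 0.14 ± 0.02 and the microtubule depolymerase Kif2c by 0.05 ± 0.02. The rise of Kif18b came from 1 probe at 0.42, while the other stood at 0.02. Kif2c lost its call when arrays were scaled to one spread and when day 2, 4 or 6 was left out. The central spindle motors Kif23 (0.07 ± 0.10) and Kif20a (0.03 ± 0.03) did not pass. The fit shares 1 spread over all liver groups, among them rosiglitazone rat 1373, where Kif23 lay at -6.64. The SE of Kif23 was wide beside the median SE of 0.04 over all features, so a small change could be missed.

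Among the Polo-like kinases outside mitosis, Plk3, which responds to stress and growth signals, rose by 0.48 ± 0.07 and Plk2, a relative induced by serum and by p53, rose by 0.44 ± 0.06. Plk3 ran from -0.61 to 1.27 in agonist livers with a median of 0.47, and Plk2 from -0.49 to 1.33 with a median of 0.45. Each overlapped the vehicle livers, with 35 of 44 agonist livers above the vehicle median for Plk3 and 39 of 44 for Plk2. Plk4, the kinase of centriole duplication, stood at 0.02 ± 0.03 and Plk5 at -0.01 ± 0.02.

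The G1 group split. Cyclin D1 (Ccnd1), which couples growth signals to the cell cycle, rose by 0.61 ± 0.10 (1.53-fold, adjusted p = 7.8e-08). It ran from -0.67 to 1.54 with a median of 0.55 in agonist livers and from -1.17 to 1.00 with a median of -0.11 in vehicle livers. The ranges overlapped widely, with 35 of 44 agonist livers above their vehicle median and 11 above every vehicle liver, 7 of those under bezafibrate. All 3 probes of Ccnd1 rose, by 0.57 to 0.67.

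The cyclins E rose less, Ccne1 by 0.12 ± 0.04 and Ccne2 by 0.10 ± 0.02. Cyclin D3 (Ccnd3) fell by 0.12 ± 0.03 and cyclin D2 (Ccnd2) by 0.10 ± 0.04. The fall of Ccnd2 was lost without day 3, 5 or 6, and of its 4 probes 2 fell and 1 rose. The kinases Cdk2 (-0.00 ± 0.03) and Cdk4 (-0.02 ± 0.02) did not pass.

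Of the 9 genes of replication licensing and of the replication fork, only Mcm7 passed, with a rise of 0.11 ± 0.03. The group's median was 0.06. Mcm2 ran from -0.61 to 1.37 with a median of -0.03 in agonist livers, and 21 of 44 lay above the vehicle median. Its difference of 0.01 ± 0.05 had a 95% interval that reached no further than 0.11. Mcm3 (0.10 ± 0.09), Mcm4 (0.09 ± 0.07), Mcm5 (0.09 ± 0.06), Mcm6 (0.06 ± 0.06) and Pcna, the clamp of the replication fork, at 0.01 ± 0.03, did not pass either.

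Of the 7 genes that carry the name of CDK inhibitors, 1 rose and 2 fell. The riser was Cdkn3, a phosphatase that acts on Cdk2 and Cdk1 and is itself transcribed in G2 and M phase, at 0.37 ± 0.05. Cdkn1c (p57) fell by 0.25 ± 0.06, and it lay below the vehicle median of the day in 37 of 44 agonist livers, whose values ran from -1.75 to 0.87. Cdkn2a fell by 0.05 ± 0.02. The best known brakes did not pass, with Cdkn1a (p21) at 0.02 ± 0.05, Cdkn1b (p27) at -0.03 ± 0.05 and Cdkn2c (p18) at -0.03 ± 0.02. The 4 probes of Cdkn1a included 1 that rose and 1 that fell.

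Of the 17 kinases of transcription and neurons and their partners, 3 rose and 2 fell. Cdkl2, a CDK-like kinase of largely unknown function in liver, was the exception in size, at 0.65 ± 0.12. It lay above the vehicle median in 41 of 44 agonist livers and above the highest of 72 vehicle livers in 17. The SE of Cdkl2 takes in rosiglitazone rat 1373, where Cdkl2 lay at -6.64. Cdkl3 rose by 0.25 ± 0.05 and the transcription kinase Cdk12 by 0.14 ± 0.02.

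Of the 15 kinesins not on the list of mitotic ones, Kif2a rose, at 0.05, a call lost without day 5 or day 6. In that group 4 fell, led by Kifc3 at -0.17 ± 0.04 and Kif16b at -0.14 ± 0.04. The falls were near the background of 23.9%. For Kif16b the probes disagreed, at -0.34 and 0.07. Among 15 others the splicing factor Cdc40 fell by 0.16 ± 0.03. Of the Cdc42 group 2 of 6 rose, led by the kinase Cdc42bpa at 0.18 ± 0.03, and of 3 subunits of the anaphase-promoting complex Cdc27 rose (0.11 ± 0.02) and Cdc26 fell (-0.10 ± 0.03).

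**Figure D2:**
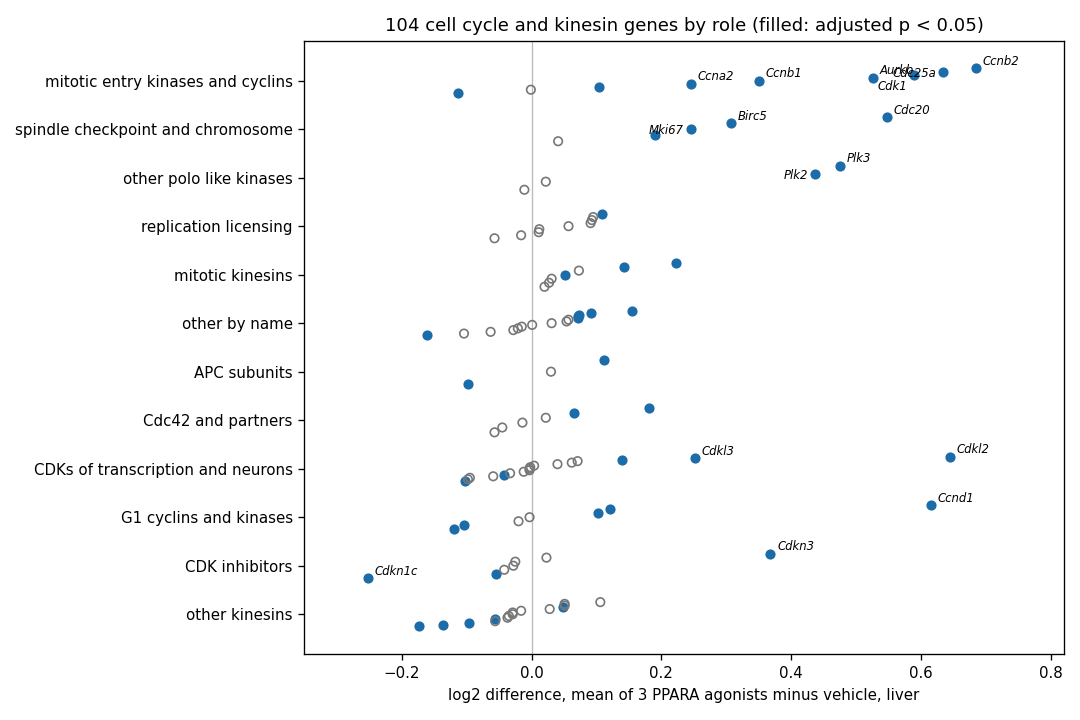
Log2 difference between the mean of the 3 PPARA agonists and vehicle in liver for each member (horizontal axis), arranged by role (rows); filled points passed at an adjusted p under 0.05 and open points did not. Members of mitotic entry and of the spindle lie mostly to the right of 0, up to Ccnb2 at 0.69, while replication licensing stays close to 0.

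Genes of the same processes that the name rule did not take were counted from lists drawn up for this comparison. The background was again 21.6% of all features higher and 23.9% lower. Of 31 measured mitosis genes outside the members, 16 rose and 4 fell, with a median of 0.09. They included securin (Pttg1) at 0.48 ± 0.08 and the kinetochore subunits Spc24 at 0.45 ± 0.05 and Spc25 at 0.37 ± 0.06. Of 30 genes of replication and nucleotide supply, 8 rose and 3 fell, with a median of 0.02. The rises were near the background. The checkpoint kinase Chek1 (0.41 ± 0.06), thymidylate synthase (Tyms, 0.31 ± 0.04) and the helicase subunit Gins1 (0.26 ± 0.04) were among the risers.

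Of 9 p53 targets, 1 rose and 3 fell, with Gadd45a at 0.39 ± 0.07 and Sesn1 at -0.25 ± 0.05. Of 12 early growth genes, 3 rose and 4 fell, with Myc at 0.74 ± 0.06 and Dusp1 at -0.78 ± 0.11. The background was 21.6% higher and 23.9% lower, and the early growth counts were near it. The list of PPARA targets had 8 of 9 genes higher and a median of 1.94. The rise of such targets was also used to infer the direction of the ratios, so it is no independent check of that direction.

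Markers of several other cell types in liver fell under the agonists, beside the rises of the mitotic genes. The background was 21.6% of all features higher and 23.9% lower. Of 11 macrophage markers, 9 fell and none rose, with a median of -0.33 and C1qa at -0.42 ± 0.06. The array medians of these markers ran from -0.72 to 0.39 in the agonist livers and from -0.42 to 0.41 in vehicle livers. Of 10 lymphocyte and leukocyte markers all 10 fell (median -0.11), of 6 endothelial markers 5 fell (-0.18), and of 8 erythroid markers 4 fell and 1 rose (-0.15). Of 9 stellate cell and fibroblast markers 1 fell (-0.08), and of 4 cholangiocyte markers 1 rose and none fell (-0.05). Of the 12 hepatocyte markers listed, 8 had values on enough arrays, of which 4 fell and 4 did not pass (-0.12). Their part in the results for the cell cycle genes was not tested.

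The agonists differed in which members moved, at doses that differed too. Under fenofibrate 29 members rose (background 17.7%) and 9 fell (19.3%), under bezafibrate 18 rose (11.4%) and 4 fell (9.89%), and under Wy-14643 27 rose (19.1%) and 9 fell (21.2%). Without the library labelled vehicle rat 1054 the counts were 40, 24 and 36. The 7 members that rose under each of the 3 compounds were Ccnb2, Ccnd1, Cdc20, Cdc25a, Cdk12, Plk2 and Plk3, and none fell under all 3, while 5.2% of all features rose and 5.18% fell under all 3. That list depended on settings: Ccnd1 under Wy-14643 lost its call in 6 of 12 alternatives, Plk3 under bezafibrate in 4, Ccnb2 under bezafibrate in 2, and Cdc20 under fenofibrate and Cdk12 under Wy-14643 in 1 each. Cdk2 and Kif3b moved in opposite directions under different agonists.

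Averaged over the days, the differences of Ccnb2, Cdk1, Aurkb and Cdc20 were larger under Wy-14643 than under either fibrate, while the highest single livers for Ccnb2 were those of fenofibrate. Ccnb2 ran from 0.08 to 1.75 with a median of 0.93 in its 15 livers, Cdk1 from 0.20 to 1.95 with a median of 0.79, and Cdc20 from 0.24 to 1.66 with a median of 0.85. All 15 livers lay above the vehicle median of their day for each of these genes and for Aurkb, Birc5, Cdkn3, Cdkl2 and Cdc25a. The differences were 1.01 for Ccnb2, 0.91 for Cdk1, 0.84 for Aurkb, 0.81 for Cdc20 and 0.50 for Birc5.

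Fenofibrate gave 0.66 for Ccnb2, 0.58 for Cdk1, 0.46 for Aurkb and 0.42 for Cdc20, and bezafibrate 0.39 for Ccnb2 and 0.40 for Cdc20. The fenofibrate means rested on day 5: without it Ccnb2 was at 0.36 and still passed, whereas Cdk1 at 0.27, Aurkb at 0.15 and Cdc20 at 0.22 no longer passed. Under bezafibrate Cdk1 stood at 0.29 with an adjusted p of 0.054, and Aurkb at 0.27, so neither passed. Cdk1 under bezafibrate was at 0.31 and passed (adjusted p = 0.017) when the library labelled vehicle rat 1054 was left out. Bezafibrate instead had the highest Ccnd1, at 0.93 ± 0.15, against 0.56 under fenofibrate and 0.36 under Wy-14643. Its 15 livers ran from -0.31 to 1.54 for Ccnd1 with a median of 0.96. Fenofibrate had the highest Cdkl2, at 1.01, with all 14 livers between 0.37 and 1.64, and the highest Plk3, at 0.66.

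Tested directly, the mean of the fibrates against Wy-14643 gave 2 members higher (background 3.72%) and 9 lower (5.31%). The mitotic genes led the second group: Ccnb2 stood at -0.48 ± 0.13, Cdk1 at -0.47 ± 0.13, Aurkb at -0.48 ± 0.15, Cdc20 at -0.40 ± 0.10, Cdkn3 at -0.29 ± 0.08, Birc5 at -0.28 ± 0.09 and Ccna2 at -0.18 ± 0.06. For Cdc25a the difference was -0.11 with a 95% interval from -0.29 to 0.06, for Ccnd1 0.38 (0.06 to 0.71, adjusted p = 0.14) and for Plk3 0.04 (-0.20 to 0.27), none of which passed. With arrays scaled to one spread 6 members passed in place of 11, and with array quality weights 24.

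Fenofibrate against bezafibrate, which are both fibrates, gave 10 members higher (background 9.3%) and 11 lower (10.5%), close to the background. Higher under fenofibrate were Cdkl2 (0.79 ± 0.24), Birc5 (0.50 ± 0.11), Cdkn3 (0.30 ± 0.09), Ccnb1 (0.27 ± 0.10) and Ccne2 (0.21 ± 0.04). Lower were Cdk15 (-0.70 ± 0.12), Cdk2 (-0.31 ± 0.07) and Cdkn1c (-0.31 ± 0.11). Ccnb2 (0.27, 95% interval -0.04 to 0.58), Cdk1 (0.29, -0.01 to 0.58), Cdc20 (0.02, -0.21 to 0.25) and Ccnd1 (-0.38, -0.76 to 0.01) did not pass. Array quality weights raised the count from 21 to 37.

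On each single day fewer members passed than over all days. In the mean of the 3 agonists, 6 members were higher and 4 lower on day 2 (background 7.06% and 6.77%), 19 and 1 on day 3 (8.27% and 7.01%), 20 and 3 on day 4 (9.8% and 8.28%), 14 and 3 on day 5 (6.01% and 4.67%), and 12 and 3 on day 6 (10.3% and 11.1%). The daily counts moved when single livers were left out. Fenofibrate had only 2 livers on day 3, so the omission of rat 1146 left 1 there. Day 3 fell from 20 to 11 without fenofibrate rat 1146, and day 4 from 23 to 12 without fenofibrate rat 1150 and to 15 without bezafibrate rat 1262. Without the library labelled vehicle rat 1054 day 5 gave 23 in place of 17. Day 2 gave 16 without the doubted liver array, rosiglitazone rat 1376 of day 4. That array is in neither group compared and acts through the spread shared by the whole liver fit.

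Cdc25a was the only member that passed on each of the 5 days, with 0.66 on day 2, 0.89 on day 3, 0.69 on day 4, 0.60 on day 5 and 0.34 on day 6. Ccnb1, Ccnb2, Ccnd1, Cdc20, Cdk1 and Plk3 passed on 4 of 5 days. Ccnb2 stood at 0.30 ± 0.18 on day 2 and reached 0.95 ± 0.17 on day 4, and Ccnd1 stood at 0.67 ± 0.22 on day 2 and at 0.17 ± 0.22 on day 6. Plk3 was at -0.05 ± 0.16 on day 2 and between 0.54 and 0.72 afterwards.

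No member passed the test that the 5 daily effects of the agonist mean differ (background 0.315%). In the test of a slope over days only Cdkn1b passed, with -0.12 ± 0.03 a day (background for lower slopes 0.495%), and that call was lost without day 2 or day 6. For the F test, 12 of the members had an unadjusted p under 0.05.

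The same test was run for each compound. For Wy-14643 no member passed (background 0.114%, and 6 members at an unadjusted p under 0.05), and for bezafibrate Kif3b alone did, with -0.19 on day 2 and 0.19 on day 3 (0.31%, and 9 at an unadjusted p), so no difference between days was shown for the mitotic genes under either. Day 3 of Wy-14643, where 15 members rose (background 5.93%), is given as an example of values by rat. The 3 livers of that day had Ccnb2 at 1.2, 1.75 and 1.36 against -0.52 to 0.56 in 14 vehicle livers, Cdk1 at 1.2, 1.95 and 1.26 against -0.32 to 0.48, and Cdc20 at 1.04, 1.66 and 1.09 against -0.21 to 0.30. Treated and vehicle livers did not overlap for these genes. The differences on day 3 were 1.40 ± 0.26 for Ccnb2, 1.46 ± 0.25 for Cdk1, 1.5 ± 0.30 for Aurkb and 1.25 ± 0.20 for Cdc20.

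Under fenofibrate 21 members rose on day 5 (background 3.74%), and 22 without the library labelled vehicle rat 1054. Fenofibrate rats 1154, 1155 and 1156 had Cdk1 at 1.68, 1.87 and 1.64, Aurkb at 1.43, 1.46 and 1.73, and Ccnb2 at 2.13, 2.16 and 0.60. Of the 14 vehicle livers of that day, the library labelled vehicle rat 1054 had Cdk1 at 1.65, Aurkb at 1.86 and Ccnb2 at 2.18, and the other 13 reached at most 0.12 for Cdk1, 0.10 for Aurkb and -0.05 for Ccnb2. The differences were 1.81 ± 0.25 for Cdk1 (3.52-fold), 1.87 ± 0.26 for Ccnb2 (3.67-fold), 1.69 ± 0.30 for Aurkb and 1.24 ± 0.20 for Cdc20. Without the library labelled vehicle rat 1054 they were 1.95 for Cdk1, 2.06 for Ccnb2, 1.84 for Aurkb and 1.36 for Cdc20. Leaving out 1 of these 3 rats gave 11 to 22 members on that day in place of 25 in both directions, with 11 without rat 1156.

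On the other days the same genes were lower under fenofibrate, with Cdk1 at -0.13 ± 0.25 on day 2, 0.38 on days 3 and 4, and 0.43 ± 0.25 on day 6. The test that its daily effects differ was passed by 7 members (background 0.701%): Aurka, Aurkb, Ccna2, Ccnb1, Ccnb2, Cdc20 and Cdk1. That result rested on few rats. Without rat 1154 or without rat 1155 only Cdk1 passed, without rat 1156 there were 6, with arrays scaled to one spread none (lowest adjusted p 0.092 by limma, 17 at an unadjusted p under 0.05), and without the library labelled vehicle rat 1054 there were 10.

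**Figure D3:**
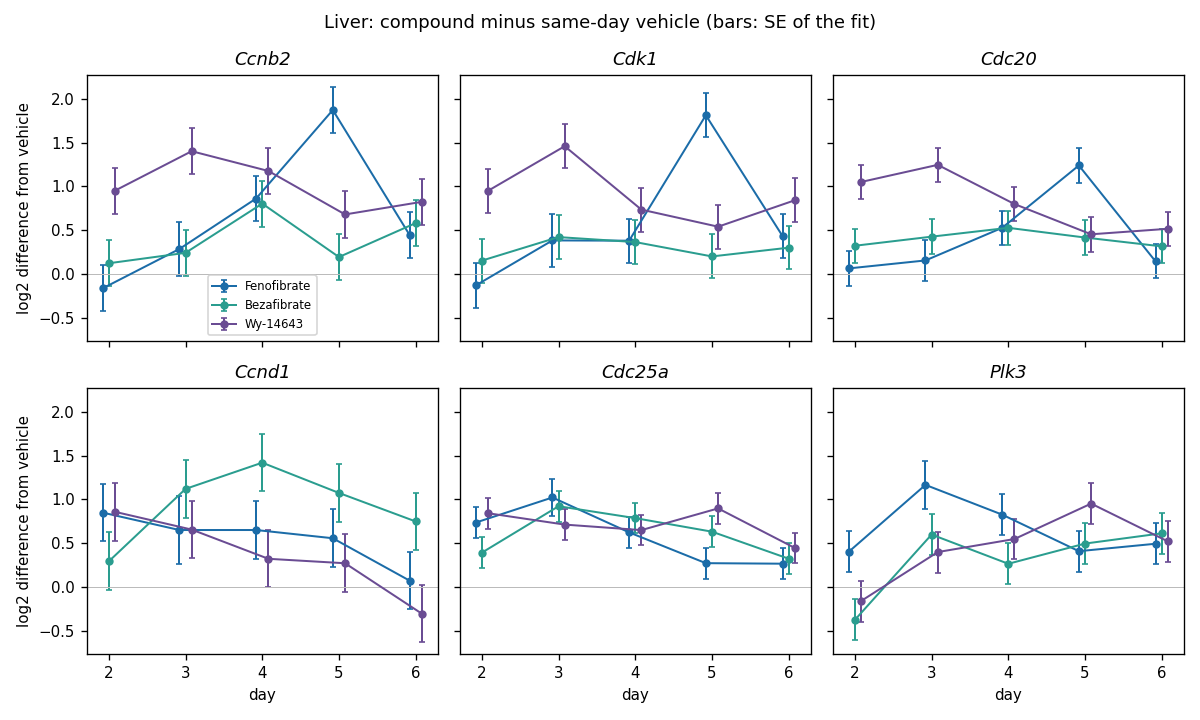
Log2 difference from same-day vehicle livers (vertical axis) on days 2 to 6 (horizontal axis) for Ccnb2, Cdk1, Cdc20, Ccnd1, Cdc25a and Plk3 under the 3 PPARA agonists; bars are the SE of the fit. The largest daily value of Cdk1 is 1.81 under fenofibrate (day 5) and 1.46 under Wy-14643 (day 3), and that of Ccnd1 under bezafibrate is 1.42 (day 4); of these, only fenofibrate passed the test for unequal days.

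For cyclin D1 under bezafibrate the test for unequal days gave a moderated F of 1.7 and did not pass (adjusted p = 0.73). On day 4 its livers had Ccnd1 at 1.27, 1.54 and 0.96 against -0.96 to 0.54 in 15 vehicle livers, and the groups did not overlap on days 3, 4 and 5. The differences were 0.29 ± 0.33 on day 2, 1.12 ± 0.33 on day 3, 1.42 ± 0.33 on day 4, 1.07 ± 0.33 on day 5 and 0.75 ± 0.33 on day 6. Days 3 and 4 passed against vehicle.

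Under rosiglitazone none of the 9 genes of mitotic entry passed. Of 104 members, 8 rose (background 10.3%) and 9 fell (12.4%). Ccnb2 was at 0.06, Cdk1 at 0.10, Cdc25a at -0.01 and Ccnd1 at -0.16, and none of them passed. Mcm10, which starts replication forks, fell by 0.53 ± 0.16, with values from -1.12 to 0.23 and 14 of 15 livers below the vehicle median. Cdk18 fell by 0.25 ± 0.05, Ccne1 by 0.23 ± 0.05 and Mcm7 by 0.16 ± 0.04, while Cdkn1c rose by 0.27 ± 0.09.

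Many of the rosiglitazone calls rested on 2 livers of day 4. In rat 1373 Kif23 and Cdkl2 lay at the lower limit of the table, -6.64, and Cdk5r1 at -4.36. Kif23 was at -0.45 over all livers and at -0.01 without that rat, Cdk5r1 at -0.30 and -0.03, and Cdkl2 at -0.39 and 0.09. Rat 1376 had the widest spread of all livers, with Plk2 at -1.96 and Kifc3 at 1.81. Its muscle fibre markers lay 1.33 above the other livers of the day. Among the 15 rosiglitazone livers the lowest array median of hepatocyte markers was -3.39, against -0.18 in vehicle livers. The highest of stellate and fibroblast markers was 1.48, against 0.26. Without both rats 8 members passed in place of 17, and 6 of the original 17 were among them, namely Cdc42, Cdk18, Cdkn2aip, Kif3b, Kifc2 and Mcm10. On day 4 alone 24 members rose and 18 fell (background 22.6% and 18.9%), and without rat 1376 8 passed. The test for unequal days was passed by 34 members (background 31.1%).

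Set against rosiglitazone directly, the agonist mean had 31 members higher (background 16.2%) and 12 lower (15.5%). The differences were 1.04 ± 0.19 for Cdkl2, 0.78 ± 0.16 for Ccnd1, 0.65 ± 0.08 for Cdc25a, 0.63 ± 0.12 for Ccnb2, 0.60 ± 0.09 for Cdc20, 0.59 ± 0.10 for Plk2 and 0.49 ± 0.12 for Cdk1. Cdkn1c was lower under the PPARA agonists, at -0.52 ± 0.09. The value for Cdkl2 includes rosiglitazone rat 1373. With arrays scaled to one spread 23 members were higher and 5 lower.

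Under retinoic acid, of 104 members, 16 rose (background 14.2%) and 9 fell (15%), so that rises were close to the background and falls below it, and without the library labelled vehicle rat 1054 27 passed in place of 25. Cdkn2b (p15), an inhibitor of Cdk4 and Cdk6, had values from 0.22 to 1.29 with a median of 0.48 in the 15 livers, all above the vehicle median and 12 above every vehicle liver. It rose by 0.57 ± 0.05 (adjusted p = 4.5e-18) and passed on each of the 5 days, with 0.33 on day 2 and 0.71 on day 3. Under the PPARA agonists Cdkn2b stood at -0.04.

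The kinesin Kifc3 ran from -0.01 to 0.78 with a median of 0.60 under retinoic acid, 13 of 15 livers above every vehicle liver, and rose by 0.56 ± 0.06. Birc5 rose by 0.58 ± 0.08, Cdk1 by 0.32 ± 0.11, Cdkn1c by 0.31 ± 0.09, Ccnd2 by 0.26 ± 0.06, Cdkn1a by 0.19 ± 0.08 and Top2a by 0.18 ± 0.05. Cdk1 lost its call without day 3, 4, 5 or 6, and Cdkn1a in 5 of 12 alternatives, over which it ran from 0.06 to 0.26. Ccnd1 fell by 0.48 ± 0.15, with values from -1.92 to 0.29 and 11 of 15 livers below the vehicle median. Kif21a fell by 0.28 ± 0.06, Plk2 by 0.24 ± 0.09, Cdk2 by 0.22 ± 0.05 and Cdkn3 by 0.18 ± 0.07. Plk2 lost its call in 7 of 12 alternatives, one of them the omission of the library labelled vehicle rat 1054, and ran from -0.31 to -0.07 over them. With arrays scaled to one spread Ccnd1 and Cdkn3 did not pass, and Cdkn3 did not without day 3 or day 6. Cdkn3 lay below the vehicle median in 14 of 15 livers.

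Of the mitotic members under retinoic acid, Birc5, Cdk1, Top2a and the kinesin Kif18b (0.17 ± 0.05) passed, while Ccnb1 at -0.03, Cdc20 at 0.03, Ccnb2 at 0.18, Aurkb at 0.33 and Mki67 at 0.18 did not. Aurkb (0.36) and Mki67 (0.20) also passed when the library labelled vehicle rat 1054 was left out. On day 3, 13 members rose (background 10.1%), led by Mcm4 at 0.94 ± 0.23. Its 3 livers had Mcm4 at 0.65, 2.25 and 0.11 against -0.17 to 0.54 in vehicle livers, so 1 rat carried most of the rise and 1 lay within the vehicle range.

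Vehicle livers also varied among themselves. After subtraction of the day's mean, the SD over 73 vehicle livers had a median of 0.13 over the members and 0.15 over all named genes, and 40 of 104 members lay above the latter. Of the members 7 were in the top 5% of named genes: Cdk11b (0.84), Mcm10 (0.61), Ccnd1 (0.52), Aurkb (0.48), Ccnb2 (0.42), Mcm3 (0.42) and Cdk1 (0.41). For Cdk11b the value came from vehicle rat 1050 at 6.43. Without the library labelled vehicle rat 1054, 5 members were in the top 5%, and the SDs of Ccnb2 (0.29) and Cdk1 (0.35) were no longer among them, while Aurkb was at 0.42 and Ccnd1 at 0.52. By construction 5% of all named genes lie in the top 5%. In quad 5 members were in the top 5%, among them Cdkn1c (0.59), Ccnb2 (0.58) and Mki67 (0.53), and in soleus none.

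The effect of the PPARA agonists on these genes differed between liver and muscle. Subtracting the effect in soleus from that in liver left 28 members higher (background 11.8%) and 2 lower (14.7%), and subtracting that in quad left 23 higher (12.1%) and 4 lower (12.7%). For 20 members liver differed from both muscles, 19 of them higher in liver (7.47% of all features) and 1 lower (8.57%). Liver minus soleus and liver minus quad were 0.74 and 0.66 for Ccnb2, 0.66 and 0.56 for Cdk1, 0.63 and 0.53 for Cdc20, 0.73 and 0.64 for Ccnd1, 0.59 and 0.68 for Cdc25a, and 0.53 and 0.50 for Plk3. Of the 20, Cdc40 was the only member lower in liver than in both muscles, at -0.27 and -0.15. Tissues carry the same rat numbers, and with the rat as a replicate block the counts were 29 and 3 against soleus, and 23 and 4 against quad. Without the library labelled vehicle rat 1054 they were 28 and 3, and 24 and 4, with Ccnb2 at 0.78 and 0.70 and Cdk1 at 0.68 and 0.59. Of the 20, Top2a lost its difference from quad when array medians were subtracted.

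**Figure D4:**
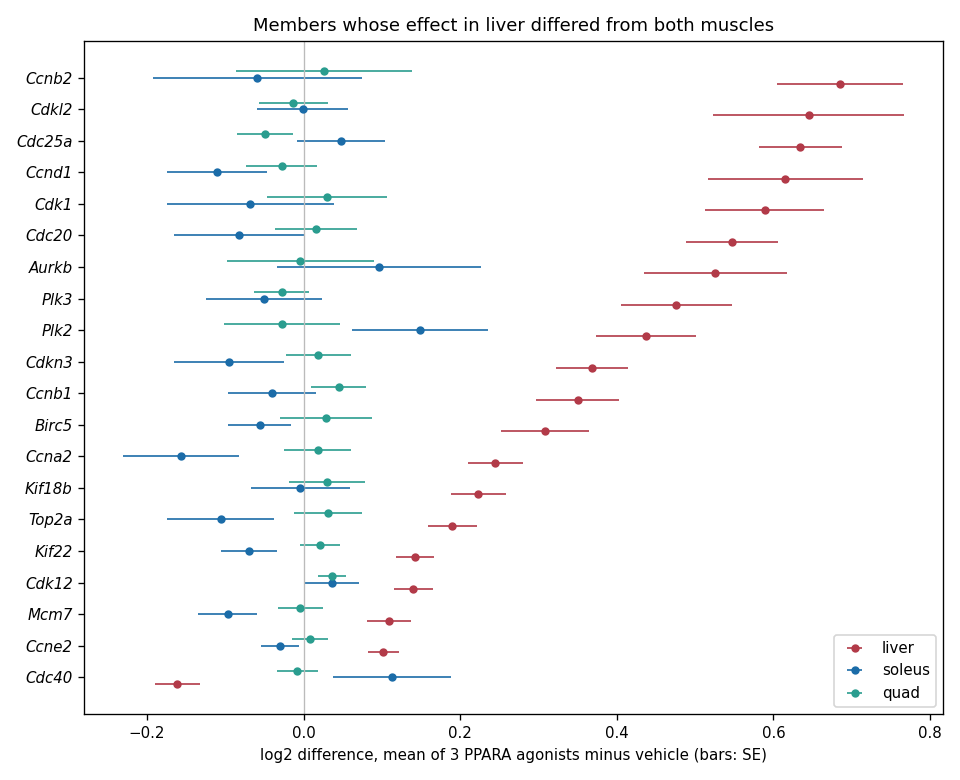
Log2 difference between the mean of the 3 PPARA agonists and vehicle (horizontal axis) in liver, soleus and quad for the 20 members (rows) whose effect in liver differed from that in both muscles; bars are SEs. The values of Ccnb2 are 0.69 in liver, -0.06 in soleus and 0.03 in quad, and Cdc40 is the only one with its liver value on the left.

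In soleus, a slow muscle, 1 member rose and 2 fell under the PPARA agonists (background 1.34% and 0.621%). Cdc73, a subunit of the Paf1 complex, rose by 0.20 ± 0.06, and Cdk4 (-0.11 ± 0.03) and the kinesin partner Kifap3 (-0.11 ± 0.03) fell. Ccnb2 stood at -0.06 ± 0.13, Cdk1 at -0.07 ± 0.11, Ccnd1 at -0.11 ± 0.06 and Cdc25a at 0.05 ± 0.06. The vehicle soleus arrays ran from -1.35 to 1.65 for Ccnb2 and from -0.89 to 1.27 for Cdk1. Without day 4 or without day 5 none of the 3 calls was left.

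Under rosiglitazone 1 member rose and 1 fell in soleus (background 1.67% and 0.964%): Cdkn1a (p21) at 0.27 ± 0.08 and Kifap3 at -0.15 ± 0.04. Cdkn1a ran from -0.19 to 0.93 with a median of 0.20, and 16 of 20 arrays lay above the vehicle median of the day. Under retinoic acid 3 rose and 2 fell (background 1.74% and 1.12%). Cdk17 rose by 0.41 ± 0.12, Cdc42bpa by 0.35 ± 0.09 and Kifc3 by 0.28 ± 0.08, the last in 18 of 20 arrays. Cdk2ap2 and Kifap3 fell, each by 0.15 ± 0.04. Of the 25 combinations of compound and day in soleus, 24 had no member past the threshold. The shares of all features on single days are not given here, so this count has no background. Single days had wider SEs, with medians over all features from 0.148 to 0.193, against 0.073 to 0.076 for a compound over all days.

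In quad, the thigh muscle, no member rose and 1 fell under the PPARA agonists (background 0.239% and 0.603%). The 1 was Kifc3, at -0.13 ± 0.04, with values from -1.09 to 0.43 and 19 of 54 arrays above the vehicle median. Ccnb2 was at 0.03 ± 0.11, Cdk1 at 0.03 ± 0.08, Ccnd1 at -0.03 ± 0.04 and Cdc25a at -0.05 ± 0.04. At an unadjusted p under 0.05, limma gave 7 members higher and 8 lower. The number that passed ranged from 0 to 18 over the other settings tried.

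Rosiglitazone moved more members in quad, with 8 up and 3 down (background 4% and 2.86%). The falls were near the background, and the shares of all features were also larger than under the PPARA agonists. Cdkn2aip, a partner of p53 regulation, rose by 0.31 ± 0.09, with values from 0.04 to 0.69 and 15 of 16 arrays above the vehicle median. Cdkn1a rose by 0.24 ± 0.07 and Cdk7, the CDK-activating kinase, by 0.20 ± 0.05, each in 14 of 16 arrays. The transport kinesin Kif3a rose by 0.19 ± 0.05, and Kifc3 fell by 0.19 ± 0.06. Without day 3 or without day 4, 2 members passed in place of 11, and without day 5, 3.

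Retinoic acid lowered 2 members in quad (background 1.7%), Cdk14 by 0.15 ± 0.04 and Kif3b by 0.11 ± 0.03, and raised none (background 0.716%), with 5 higher at an unadjusted p under 0.05. In 19 of 25 combinations of compound and day no member passed. The highest count, 36, was on day 6 of fenofibrate, the day of rat 1157, whose array has 7.7 times the usual spread and whose Cdk17 stood at -4.03. Shares of all features on single days in quad are not given here, so these counts cannot be set against a background.

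In EDL, a fast muscle, the rats were compared with the vehicle pool alone, a test that leaves out the spread of vehicle animals. Against the pool 17 members were higher and 22 lower under fenofibrate at 50 mkd (9 arrays, background 17.2% and 17.4%). Under Wy-14643 at 10 mkd (12 arrays) they were 24 and 27 (background 23.1% and 23.9%). The same 5 members were higher in each of the 6 EDL groups, and 11 were lower in each, while 5.99% of all features were higher and 8.12% lower in each, so both counts were near the background. The groups were set against vehicle pools of the same kind and have no arrays of single vehicle rats beside them.

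Pcna was among the 5, between 0.23 and 0.43 above the pool in the 6 groups. Its 12 arrays under Wy-14643 ran from 0.22 to 0.49 with a median of 0.37, and none lay below the pool. Cdk15 was above the pool by 0.35 to 0.61, Cdkl2 by 0.20 to 0.33, Mcmbp, a partner of the Mcm complex, by 0.19 to 0.34, and Kif2a by 0.13 to 0.23. Among the 11 were cyclin D3 (Ccnd3), a cyclin of muscle differentiation, between -0.46 and -0.27, and Cdk4, between -0.24 and -0.18.

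Mcm7 was below the pool in 5 of the 6 groups, by values from -0.39 under fenofibrate to -0.27 under rosiglitazone at 10 mkd. In the 4 rats given rosiglitazone at 100 mkd it stood at -0.21 ± 0.09 and did not pass. Those rats were all of day 4 and included rats 1373 and 1376, whose livers stood apart, although no EDL array was doubted. The mitotic genes differed in direction in EDL. Aurka was above the pool in each group, by 0.14 to 0.33, and passed in 5 of 6, and the kinesin Kif20a was below it in each, between -0.15 and -0.10, and passed in 4. Ccnb2 ran from -0.70 to 0.36 over the groups and Cdk1 from -0.54 to 0.18. Ccnb2 passed as higher under retinoic acid (0.36 ± 0.12) and as lower under rosiglitazone at 100 mkd (-0.70 ± 0.21). Cdc25a stayed between -0.10 and 0.05 and Plk3 between -0.02 and 0.11, and neither passed in any group.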

How the data were processed

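Ratios of 484 arrays with 2 dyes were read as deposited by the authors, as log10 ratios of the single rat (Cy5) to a vehicle pool (Cy3) of its tissue and day, per the labels. That the values are log10, rat over pool, was inferred from their centre at 0, their limits at -2 and 2 and the rise of PPARA targets under the agonists, since background correction and normalization are not given in the sources used here. They were multiplied by 3.32 to log2. Of 23653 probes, 15260 carried 1 gene symbol, 17 several and 8376 none. Probes were averaged per gene, and features with values on at least 80% of the arrays of a tissue were fitted. Of all values 0.91% were missing and 699 lay at the limits.

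One mean per compound and day was fitted in each tissue with limma 3.58.1 (R 4.3.3, statmod 1.5.0), and days were weighted equally. Plots were drawn with matplotlib 3.10.9 and tables made with pandas 2.3.3 on numpy 2.4.6 (Python 3.11.15). P-values were adjusted by Benjamini-Hochberg over all features of a comparison. Errors are SEs of the fit. EDL ratios were tested against 0. Effects in liver and muscle were compared in 1 joint fit over 18213 features. The number of arrays, not a count of reads, limits the precision, and p-values measure the spread between the rats sampled.

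Rat numbers in the labels recur across tissues (162 rats in more than 1), and the joint fit was repeated with the rat as a block (correlation 0.047, 17294 features). An array was doubted where its spread was over 3 times its tissue's median or another tissue's markers exceeded 2 on the log2 scale. The rule for named genes took, per comparison, the members that passed with the largest differences, and in each case a set of well known cyclins, kinases, inhibitors, Mcm genes and mitotic markers; the text gives the leading ones of each role. The members and lists were chosen with earlier results of these data known. The fit was tested on simulated data with known changes. The simulated noise was independent between features and held no outlying arrays, so that test does not cover such arrays. Alternatives were subtracted array medians, arrays scaled to one spread, array quality weights, each probe on its own, ratios to the pool, and omission of arrays, days or rats. Bub1, Cdc6 and Kif11 were not analysed here.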

Additional observations from a re-analysis of the deposited data

Results flagged for a closer look

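The effect of the PPARA agonists differed between liver and both muscles for 20 members, by a test of the difference itself. Liver minus soleus and liver minus quad, on the log2 scale, were 0.43 and 0.53 for Aurkb, 0.36 and 0.28 for Birc5, 0.40 and 0.23 for Ccna2, 0.39 and 0.30 for Ccnb1, and 0.74 and 0.66 for Ccnb2. They were 0.73 and 0.64 for Ccnd1, 0.13 and 0.09 for Ccne2, 0.63 and 0.53 for Cdc20, 0.59 and 0.68 for Cdc25a, and -0.27 and -0.15 for Cdc40. They were 0.66 and 0.56 for Cdk1, 0.10 and 0.10 for Cdk12, 0.65 and 0.66 for Cdkl2, 0.46 and 0.35 for Cdkn3, and 0.23 and 0.19 for Kif18b. They were 0.21 and 0.12 for Kif22, 0.20 and 0.11 for Mcm7, 0.29 and 0.46 for Plk2, 0.53 and 0.50 for Plk3, and 0.30 and 0.16 for Top2a.

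The effect of fenofibrate in liver differed between days for 7 members. The moderated F was 6.01 for Aurka, 5.86 for Aurkb, 5.99 for Ccna2, 7.0 for Ccnb1, 8.39 for Ccnb2, 6.04 for Cdc20 and 8.33 for Cdk1. Without fenofibrate rat 1154 or rat 1155, only Cdk1 passed. For bezafibrate the F was 7.37 for the transport kinesin Kif3b.

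In EDL, 1 rat lay apart from the others of its group for Mcm7 under bezafibrate, at -0.89, and for Cdk4 under fenofibrate, at -0.49. These were 2 of 44 groups examined over 11 members, and chance flags about 1 in 20.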

How the results depend on the processing

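Shares of all features that passed under the alternatives are not given, here or in the sections above. Counts under alternatives therefore cannot tell a change in these members from one over the whole array. In liver the number of members passing in the mean of the PPARA agonists, 46, stayed between 41 and 59, and 37 of them passed under each alternative tried. The same held for 28 of 36 under Wy-14643, 20 of 38 under fenofibrate, 12 of 22 under bezafibrate, 12 of 25 under retinoic acid and 3 of 17 under rosiglitazone. In soleus and quad it held for none. The lowest and highest values were 0.57 and 0.78 for Ccnb2, 0.50 and 0.66 for Cdk1, 0.51 and 0.71 for Cdc25a, and 0.52 and 0.73 for Ccnd1. With the rat number as a replicate block, 32 members differed between liver and soleus (30 without the block) and 27 between liver and quad (27 without it).

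Array quality weights gave, in liver, 52 members for bezafibrate, 47 for retinoic acid in place of 25, 24, 43, 34 and 29 for the agonist mean on days 2, 3, 5 and 6 in place of 10, 20, 17 and 15, 37 for fenofibrate against bezafibrate, 24 for the fibrates against Wy-14643 and 23 for unequal days of fenofibrate. Scaling arrays to one spread gave 11 for rosiglitazone, 28 for the agonists against rosiglitazone, 6 for the fibrates against Wy-14643 and 0 for unequal days. Under that scaling the split was 16 higher and 8 lower for bezafibrate and 3 and 8 for rosiglitazone. Ratios to the pool gave 26 for rosiglitazone. Bezafibrate gave 14 without day 6, rosiglitazone 7 without day 4 and 8 without rats 1373 and 1376, and the slope 0 without day 2 or day 6. Without the doubted liver array, rosiglitazone rat 1376 of day 4, the agonist mean on day 2 gave 16. Leaving out 1 rat gave 11 to 21 on day 3, 12 to 25 on day 4, 11 to 22 for fenofibrate on day 5 and 1 to 6 for unequal days. Cdk5r1 under rosiglitazone turned from -0.30 to 0.048 without day 4 and to 0.014 without rats 1373 and 1376.

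In soleus, bezafibrate (2 members) gave 5 with scaling, 4 with weights, 6 against the pool, 1 without day 2 and 0 without day 4 or 5. Fenofibrate (4) gave 7, 1, 0 and 2 without days 2, 4, 5 and 6. The agonist mean (3) gave 1 without doubted arrays, 20 against the pool, 7 without day 2 and 0 without day 4 or 5. Retinoic acid (5) gave 2, 3, 0, 1 and 2 without days 2 to 6. Rosiglitazone (2) gave 5 with scaling, 7 with weights, 7 without doubted arrays, 8 against the pool, and 6, 0 and 1 without days 3, 4 and 5. Wy-14643 (0, with 6 at an unadjusted p under 0.05) gave 1 with weights, 2 against the pool and 1 without day 3.

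In quad, bezafibrate (2) gave 5 with scaling, 6 with weights, 5 without doubted arrays, 12 against the pool, and 0, 1, 1 and 1 without days 2 to 5. Fenofibrate (2) gave 0 with scaling or weights, 1 without doubted arrays, 18 against the pool, 5 with each probe on its own, and 1, 6, 0, 7 and 0 without days 2 to 6. The agonist mean (1) gave 2 with scaling or weights, 4 without doubted arrays, 18 against the pool and 0 without day 3, 4 or 6. Retinoic acid (2) gave 1 with medians, 4 without doubted arrays, 1 against the pool, and 4, 0 and 0 without days 2, 4 and 5. Rosiglitazone (11) gave 24 with weights, 21 against the pool, and 2, 2 and 3 without days 3, 4 and 5. Wy-14643 (0, with 21 at an unadjusted p under 0.05) gave 1 against the pool. The cause of these changes was not tested.

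The omission of vehicle rat 1054 (for the tissue differences and vehicle SDs too), of rosiglitazone rats 1373 and 1376, of single livers of a day, and the alternatives for the compound differences and for unequal days were chosen after seeing the data. With 3 treated livers a day, a single rat can decide a daily count.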

Other observations

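A few values lay far from all others of their gene. Cdk11b, a kinase of transcription and splicing, stood at 6.43 on the log2 scale in the liver of vehicle rat 1050 and at 6.64, the upper limit of the table, in EDL of retinoic acid rat 1289. In quad of vehicle rat 1054, the median of the 9 PPARA targets was 0.05, against 1.17 in the liver library of that label. In quad these medians centred on 0.12, 0.18 and 0.17 under fenofibrate, bezafibrate and Wy-14643. They ran from -0.89 to 0.59 in the other 62 vehicle quads, so the quad value cannot tell a treated from a vehicle rat. In the liver library labelled vehicle rat 1054, the mitosis genes outside the members had a median of 0.44, and the other vehicle livers reached at most 0.26.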
